A study of Mus musculus with 6 samples.

Results

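The genes of the ciliary axoneme, of transport within cilia and of multiciliation were described in the dorsal telencephalon of mouse embryos injected with FGF2. They were chosen by name from the deposited gene list: Ccno, Foxj1, Rfx2 and Rfx3, and every symbol that starts with Dnah, Dnai, Dnal, Tekt, Rsph or Spag, or with Ift or Bbs followed by a digit, pseudogenes left out. The rule took 67 of 37991 genes. They fall into 4 regulators, 37 genes of the motile axoneme, 20 Ift and Bbs genes and 6 other Spag genes, whose shared name comes from sperm antigens and not from a role in cilia. The 37 motile genes are 15 dynein heavy chains, 5 dynein intermediate and light chains, 5 tektins, 7 radial spoke genes and 5 Spag genes of the cilium. Reads were found for 65 of the 67, all but Spag11a and Spag11b.

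Each of 6 CD1 embryos gave 1 RNA-seq library. At E13.5, counted in days of gestation, the vesicles of the telencephalon of 3 embryos (FGF2 6, 7 and 8) received 100 ng of FGF2 through the ventricle, and those of 3 embryos (vehicle 7, 8 and 9) received PBS with 0.1% BSA. FGF2 is a secreted growth factor that signals through FGF receptors on ventricular progenitors. RNA came from formalin-fixed coronal cryosections of regions rostral to the hippocampus, and the collection age is given as the same day, with no interval after the injection stated. The labels do not say whether the embryos came from separate litters, so p-values measure only the spread between these samples.

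A cilium is a microtubule rod, the axoneme, that grows from a centriole docked at the cell surface. Most cells carry a single primary cilium, which senses signals and does not beat; radial glia, the progenitors of the telencephalon, hold theirs in the ventricle. A beating cilium adds dynein arms, which slide the microtubules, radial spokes and a central apparatus, which time that sliding, and tektins, which line the microtubule walls. Intraflagellar transport (Ift) proteins and the BBSome (Bbs) carry cargo in both kinds of cilium. Foxj1 switches on motile axoneme genes, Rfx2 and Rfx3 bind the X-box of cilium gene promoters, and Ccno, cyclin O, is needed for the mass production of centrioles in cells with many cilia. In the brain, cells with many motile cilia are known from the ependyma, which lines the ventricle after birth, and from the choroid plexus epithelium, which forms in the embryo.

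The libraries held 61489462 to 81532334 counted alignments. Every count in vehicle 9 was even, whereas 51 to 51.9% of the non-zero counts in the other libraries were. The 3 FGF2 libraries and vehicle 7 had 10475 to 16232 reads in Y-linked genes, while vehicle 8 and vehicle 9 had 22 each and 58349 and 57904 reads of Xist, so that sex was not balanced between the groups. Markers of the labelled dorsal telencephalon were present in every library, at a summed 1624 to 1765 CPM with FGF2 and 2387 to 2553 CPM with vehicle over 8 genes, of which Emx1, Eomes and Pax6 fell. In bulk tissue, fewer cells of a type and less RNA per cell cannot be told apart, here and in all results that follow.

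Genes of the motile cilium were higher with FGF2 in part. The transport genes that serve all cilia differed by -0.38 to 0.47 (log2). Of the 60 members tested, 8 rose and 0 fell (edgeR quasi-likelihood test, Benjamini-Hochberg adjusted p below 0.05 over all genes). Among all 21983 genes tested, 3.63% were called, 2.68% higher and 0.951% lower with FGF2. The 8 were Ccno and Foxj1 of the 4 regulators, and the dynein heavy chains Dnahc6 and Dnahc7b, the radial spoke genes Rsph1 and Rsph4a, the tektin Tekt1 and the central apparatus gene Spag6 of the 37 motile genes. None of the 20 Ift and Bbs genes was called, which is near the 3.63% of all genes tested. At an unadjusted p below 0.05 stood 19.3% of all genes tested, 11.2% higher with FGF2. Of the 37 motile genes 15 did, all 15 higher, and of the 20 Ift and Bbs genes 4 did, 3 of them higher, which is near the share of all genes. The filter on low counts asked for 3 libraries at its level. Ccno, Rsph4a and Tekt4 reached that level in no vehicle library, Dnahc5 in 1, and Rsph1, Dnahc6, Dnahc3 and Tekt5 in 2, so these 8 passed only with FGF2 libraries counted, and the share of tested members is not a share of all members. Without the filter, 7 of the 37 motile genes were called, Tekt4 added, where 2.16% of 29000 genes were called higher and 0.776% lower.

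**Figure D1:**
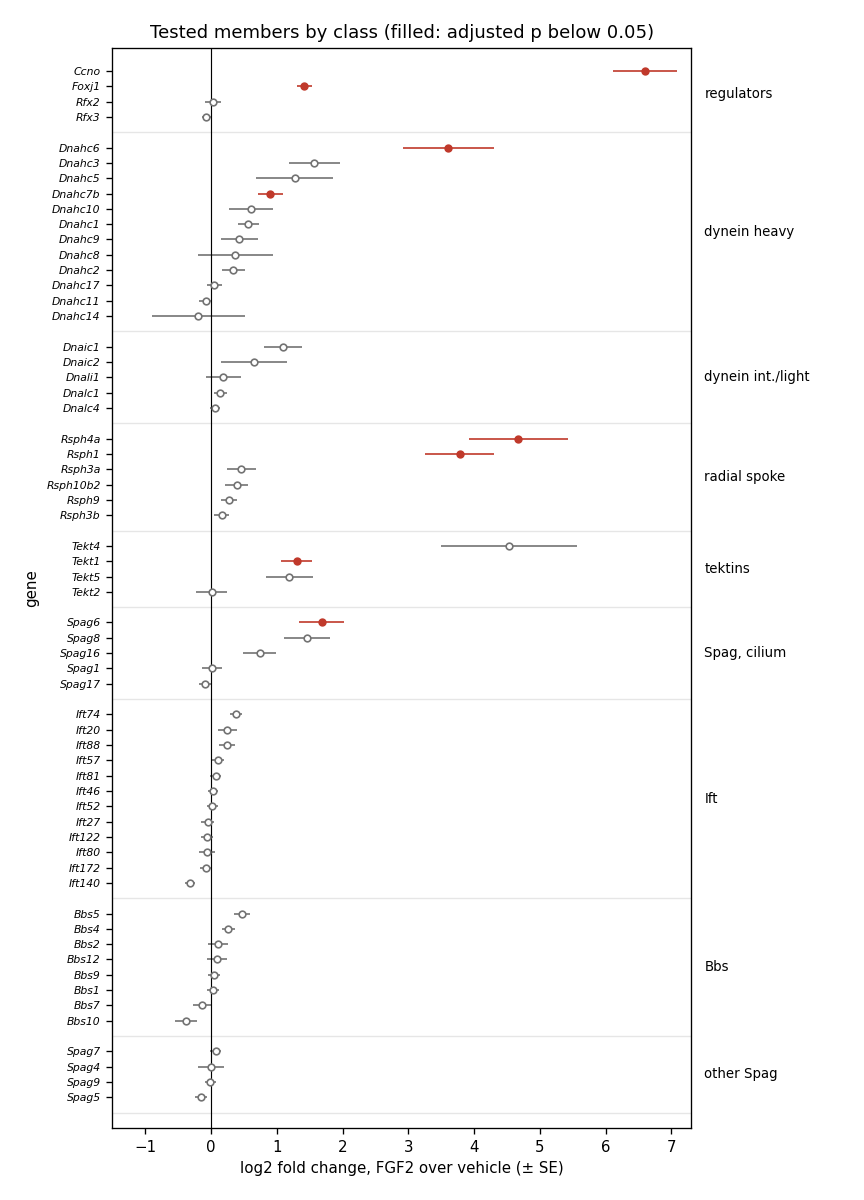
Log2 fold change of FGF2 over vehicle (x axis, with its standard error) for the 60 tested members, 1 row a gene, grouped by class; filled red points passed the test. The Ift and Bbs genes lie between -0.38 and 0.47, while the motile classes reach 4.67 and Ccno lies at 6.60.

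Promoters were read for the called members, since the X-box is the site by which Rfx factors are known to reach cilium genes. RefSeq entries of GRCm38.p6 were matched for 54 of the 67 members. The 250 bases before each start site were searched on both strands for 7 motif forms. Of the 8 called members, 5 had an entry: Ccno (chr13:112987552-112987801, plus strand), Dnahc6 (chr6:73221632-73221881, minus strand), Dnahc7b (chr1:46066603-46066852, plus strand), Spag6 (chr16:16829364-16829613, minus strand, listed there as Spag6l) and Tekt1 (chr11:72361883-72362132, minus strand). They are shown 5′ to 3′ up to the base before the start site, with the match to a loose X-box in capitals.

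Ccno: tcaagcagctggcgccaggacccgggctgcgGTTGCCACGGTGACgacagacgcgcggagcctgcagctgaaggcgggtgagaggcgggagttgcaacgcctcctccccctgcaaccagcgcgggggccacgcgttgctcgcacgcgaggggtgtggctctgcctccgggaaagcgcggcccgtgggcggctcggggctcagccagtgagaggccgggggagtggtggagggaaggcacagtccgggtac
Dnahc6: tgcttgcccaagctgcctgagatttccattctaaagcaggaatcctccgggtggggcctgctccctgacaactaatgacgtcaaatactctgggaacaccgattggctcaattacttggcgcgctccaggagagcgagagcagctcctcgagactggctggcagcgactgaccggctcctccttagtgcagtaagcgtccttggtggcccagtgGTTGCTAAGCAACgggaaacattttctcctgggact
Dnahc7b: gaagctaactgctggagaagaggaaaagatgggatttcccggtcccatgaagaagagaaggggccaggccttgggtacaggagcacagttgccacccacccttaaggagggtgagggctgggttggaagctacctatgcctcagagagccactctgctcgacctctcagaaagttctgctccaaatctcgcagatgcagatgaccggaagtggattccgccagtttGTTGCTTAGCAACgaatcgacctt
Spag6: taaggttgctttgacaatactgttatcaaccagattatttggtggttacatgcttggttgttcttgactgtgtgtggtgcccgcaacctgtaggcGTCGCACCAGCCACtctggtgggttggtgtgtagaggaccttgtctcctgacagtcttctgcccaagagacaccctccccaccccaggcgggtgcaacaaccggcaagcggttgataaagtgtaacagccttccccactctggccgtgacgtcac
Tekt1: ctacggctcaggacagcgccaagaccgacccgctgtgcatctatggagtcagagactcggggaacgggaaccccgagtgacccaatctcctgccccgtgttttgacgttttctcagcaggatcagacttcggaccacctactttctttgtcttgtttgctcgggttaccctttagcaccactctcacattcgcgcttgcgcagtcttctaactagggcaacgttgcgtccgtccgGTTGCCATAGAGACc

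The loose form was GTNNC and GNNAC with 3 to 5 bases between, that is GTNNCNNNGNNAC, GTNNCNNNNGNNAC or GTNNCNNNNNGNNAC, each of which is its own reverse complement. In Dnahc6 and Dnahc7b the match was 13 bases long and ended 24 and 12 bases before the start site. In Tekt1 it ended 2 bases before the start, in Spag6 142 bases and in Ccno 206 bases before it. A second Tekt1 start (chr11:72361297-72361546) held no match. The loose form was found in 16.3% of 27025 genes, in 13 of the 30 motile genes with an entry, in 3 of the 17 Ift and Bbs genes and in 5 of the 5 called members. A strict form, GTNNCC and GGNAAC with 1 to 3 bases between, was found in 2.05% of genes. Ccno held it, as did Bbs7, Ift57, Tekt4 and Spag5, none of which was called. An intermediate form, GTTNCC and GNNAC with 1 to 3 bases between, was found in 4.46% of genes. It was in 7 of the 30 motile genes, 2 of the 17 Ift and Bbs genes and 2 of the 5 called members. Of the 7 forms searched, only the loose X-box was found in all 5 called members. The shorter site GTTGCC, which can lie inside an X-box, was found in 11.8% of genes. It was in 6 of the 30 motile genes, 4 of the 17 Ift and Bbs genes and 3 of the 5 called members. In Ccno and Tekt1 it lay inside the match shown in capitals, and in Dnahc7b it lay outside. Its looser form GTTNCC was found in 42.8% of genes, in 19 of the 30, 12 of the 17 and 4 of the 5. The forkhead site GTAAACA, the kind of site that Foxj1 and its relatives bind, was found in 3.54% of genes and in Dnahc17 and Tekt3 alone among the members. TGTTTAC is the same site read on the other strand, so a search for TGTTTAC or TGTTTGT had to find those 2 genes again. This wider form was found in 9.86% of genes and in no further member. These matches describe the letters of the window and show neither a bound site nor a cause.

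The regulators parted into a pair that rose and a pair that did not. Ccno (chromosome 13, positions 113778010 to 113780986, NCBIM37) had 7.51, 6.82 and 4.49 CPM (counts scaled to library size with TMM factors) in FGF2 6, 7 and 8, and 0.0327, 0.0299 and 0.127 CPM in vehicle 7, 8 and 9. These are 632, 484 and 289 reads against 2, 2 and 8, so the gene was near the limit of detection in each vehicle embryo and clearly read in each FGF2 embryo. The lowest FGF2 value, in FGF2 8, was still far above the highest vehicle value. Ccno rose by 6.60 ± 0.49 on the log2 scale (SE, n = 3 against 3, edgeR adjusted p = 0.00128). The deposited RPKM, which scales exonic reads by gene length and library size, gave 4.22, 3.80 and 2.45 against 0.0192, 0.0174 and 0.0716.

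Foxj1 (chromosome 11, 116192018 to 116196713), the forkhead factor of motile ciliogenesis, had 16.7, 19.7 and 19.4 CPM with FGF2 and 6.72, 7.41 and 6.70 CPM with vehicle. The groups did not overlap, and unlike Ccno the gene was well read in every vehicle embryo. It rose by 1.42 ± 0.12 on the log2 scale (SE, edgeR adjusted p = 0.00176), a fold of 2.68. Per exon length its level was 7.49 ± 0.622 RPKM with FGF2 and 2.58 ± 0.167 RPKM with vehicle (SD, n = 3).

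Rfx2, an X-box factor of ciliated and spermatogenic cells, had 16.4, 16.5 and 14.2 CPM with FGF2 and 14.3, 17.2 and 14.8 CPM with vehicle. Rfx3, which acts in primary and motile cilia, had 62.1, 59.8 and 65.6 CPM against 65.9, 66.7 and 64.4 CPM. In both genes the groups overlapped, and the differences of 0.03 ± 0.12 and -0.07 ± 0.07 (log2, SE) did not pass the test (edgeR adjusted p = 0.926 and 0.627).

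**Figure D2:**
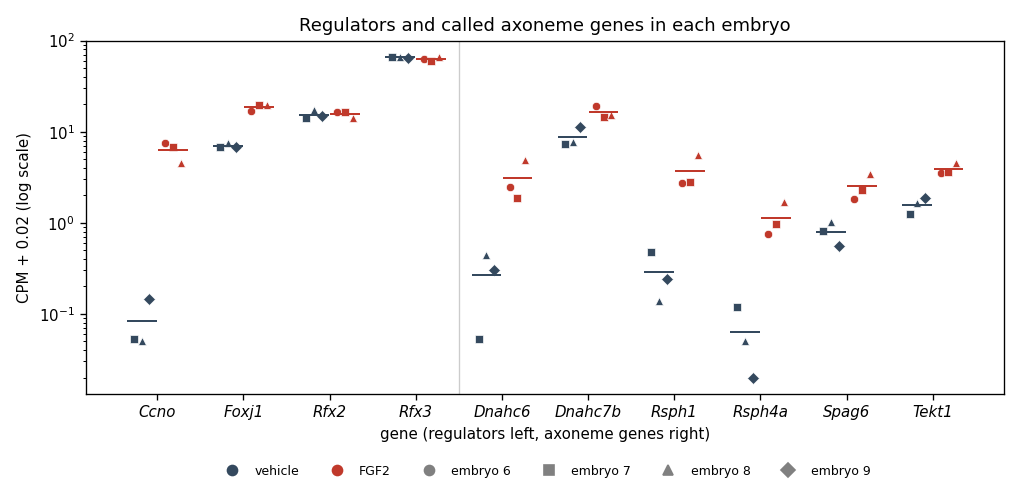
CPM plus 0.02 (y axis, log scale) of the 4 regulators and the 6 called axoneme genes in each embryo, vehicle in dark blue and FGF2 in red, with the marker shape giving the embryo number and the line the group mean. No red point of the 8 called genes lies at or below a dark blue point of the same gene, while Rfx2 and Rfx3 overlap.

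The radial spokes held the axoneme genes with the clearest differences. Rsph1 (chromosome 17, 31391964 to 31414301) and Rsph4a (chromosome 10, 33624917 to 33635827) encode parts of the spoke head that faces the central apparatus. Rsph1 had 2.70, 2.81 and 5.52 CPM with FGF2 and 0.458, 0.120 and 0.222 CPM with vehicle. FGF2 8 was highest and the groups were well apart. It rose by 3.78 ± 0.52 on the log2 scale (SE, edgeR adjusted p = 0.0101), and its exonic level went from 0.131 ± 0.106 to 3.07 ± 1.37 RPKM (SD, n = 3). Rsph4a had 0.737, 0.945 and 1.68 CPM with FGF2 and 0.0981, 0.0299 and 0 CPM with vehicle, that is 62, 67 and 108 reads against 6, 2 and 0. Again FGF2 8 was highest. Its rise was 4.67 ± 0.75 on the log2 scale (SE, edgeR adjusted p = 0.0195), from a vehicle level of only 8 reads in all.

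The other spoke genes were read in all embryos and were not called. Rsph3b, a stalk gene with the near-copy Rsph3a, had 15.8, 17.9 and 16.7 RPKM with FGF2 and 12.9, 16.3 and 15.3 RPKM with vehicle, overlapping between the groups (log2 difference of counts 0.16 ± 0.11 SE). Rsph9, a head gene, had 2.33, 2.32 and 3.92 RPKM against 0.732, 1.90 and 2.17 RPKM. Its groups did not overlap, yet its count difference of 0.27 ± 0.12 (log2, SE) was not called, and its span also collects reads of the overlapping gene Mrps18a. Rsph3a and Rsph10b2 differed by 0.46 ± 0.22 and 0.39 ± 0.17 (log2, SE), not called. Rsph6a, a spoke head gene known from sperm, was not tested: it had 1, 0 and 19 reads with FGF2 and 0, 2 and 44 with vehicle.

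Dynein heavy chains are the motors of the axoneme, and 2 of the 15 rose. Dnahc6 (chromosome 6, 72967600 to 73171645), an inner arm motor, had 2.44, 1.86 and 4.84 CPM with FGF2 and 0.0327, 0.419 and 0.286 CPM with vehicle. FGF2 8 was highest and vehicle 7, with 2 reads, lowest. The rise was 3.61 ± 0.69 on the log2 scale (SE, edgeR adjusted p = 0.0366), and its span overlaps a SNORA73 entry.

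Dnahc7b (chromosome 1, 46123583 to 46430395), an inner arm motor with the near-copies Dnahc7a and Dnahc7c, had 18.9, 14.5 and 15.4 CPM with FGF2 and 7.25, 7.72 and 11.2 CPM with vehicle. The gap between FGF2 7 and vehicle 9 was the narrowest of the 8 called members in proportion. It rose by 0.90 ± 0.19 on the log2 scale (SE, edgeR adjusted p = 0.0482). In exonic RPKM the values were 0.626, 0.446 and 0.513 against 0.134, 0.112 and 0.182. The ratio of means was thus 3.70 in exonic RPKM and 1.87 in counts over the whole span, introns included. Dnahc7a and Dnahc7c had 6 and 11 reads in all FGF2 libraries together and 1 and 0 in the vehicle libraries, and were not tested.

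Some other heavy chains showed the same gap between the units, and others did not. The ratio of means in RPKM and the fold in counts were 12.4 and 12.2 in Dnahc6 and 1.31 and 1.35 in Dnahc9. In Dnahc8 and Dnahc14 the gap ran the other way, at 0.899 and 1.29 and at 0.174 and 0.879. In exonic RPKM 7 of the 15 were higher in each FGF2 embryo than in any vehicle embryo, and in CPM 4 of the 15 were, where 15.3% of all genes in RPKM and 12.6% of the genes with a read in CPM were. Dnahc2, an inner arm motor, had 0.204, 0.191 and 0.246 RPKM with FGF2 and 0.113, 0.105 and 0.108 RPKM with vehicle, with no overlap and a ratio of means of 1.95. Its span counts overlapped between the groups, and the difference of 0.34 ± 0.17 (log2, SE) was not called. Dnahc17, known from sperm outer arms, had 0.690, 0.601 and 0.690 RPKM against 0.570, 0.551 and 0.496 RPKM, also apart, with a ratio of 1.22 and a count difference of 0.05 ± 0.11 (log2, SE). Its span overlaps Pgs1, a gene of lipid synthesis.

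Dnahc11, an outer arm motor whose span overlaps Cdca7l, had 0.793, 0.939 and 0.758 RPKM with FGF2 and 0.777, 0.855 and 0.730 RPKM with vehicle, and these overlapped. Dnahc3 had 0.618, 0.761 and 0.793 CPM against 0.229, 0.150 and 0.349 CPM, with no overlap and a difference of 1.57 ± 0.39 (log2, SE) that missed the threshold (edgeR adjusted p = 0.074). Dnahc1 likewise was apart, at 9.93, 9.60 and 9.67 CPM against 5.15, 7.02 and 7.49 CPM, with a difference of 0.57 ± 0.16 (log2, SE, edgeR adjusted p = 0.113). Dnahc5, the outer arm motor of airway cilia, had 49, 26 and 35 reads with FGF2 and 7, 6 and 26 with vehicle, and scaled to CPM the groups overlapped. Over the 12 heavy chains tested, differences ran from -0.19 in Dnahc14 to 3.61 in Dnahc6.

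Of the dynein intermediate and light chains none was called. Dnaic1, an outer arm intermediate chain, had 1.22, 1.44 and 1.38 CPM with FGF2 and 0.785, 0.434 and 0.667 CPM with vehicle, with no overlap and a difference of 1.10 ± 0.29 (log2, SE, edgeR adjusted p = 0.0887). Dnalc4, a light chain, had 15.2, 16.3 and 14.7 RPKM against 13.1, 14.2 and 15.5 RPKM, which overlapped. Dnalc1, another light chain, had 3.61, 3.47 and 3.91 RPKM against 3.32, 3.09 and 3.31 RPKM. Its FGF2 values lay just above its vehicle values, and its count difference of 0.14 ± 0.10 (log2, SE) was not called.

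Among the tektins, Tekt1 (chromosome 11, 72158224 to 72175944) had 3.46, 3.58 and 4.57 CPM with FGF2 and 1.23, 1.63 and 1.84 CPM with vehicle. FGF2 8 was again highest, with no overlap. The rise was 1.30 ± 0.23 on the log2 scale (SE, edgeR adjusted p = 0.0265). Tekt2, in contrast, had 8.05, 8.22 and 14.5 CPM against 9.73, 9.08 and 11.7 CPM. Only FGF2 8 exceeded the vehicle embryos, and the difference was 0.01 ± 0.24 (log2, SE). Tekt4 had 15, 51 and 44 reads with FGF2 and 0, 0 and 4 with vehicle, a fitted difference of 4.53 ± 1.03 (log2, SE, edgeR adjusted p = 0.0588). Tekt5 had 28, 28 and 23 reads against 10 in each vehicle embryo (edgeR adjusted p = 0.125), and Tekt3, with 4 reads against 1, was not tested.

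The Spag genes of the cilium encode parts of the central apparatus, an assembly factor and a protein of the microtubule wall. Spag6 (chromosome 16, 16753109 to 16829549), of the central apparatus, had 151, 160 and 220 reads with FGF2 and 48, 67 and 34 reads with vehicle, or 2.49 ± 0.838 and 0.776 ± 0.231 CPM (SD, n = 3). FGF2 8 was highest and the groups did not overlap in CPM. Spag6 rose by 1.68 ± 0.34 on the log2 scale (SE, edgeR adjusted p = 0.0407), and its span also holds Gm7689. Spag8 had 2.35, 2.20 and 2.58 CPM against 0.671, 0.554 and 1.37 CPM, apart but short of the threshold (1.46 ± 0.35 log2, SE, edgeR adjusted p = 0.0698).

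Spag1, which helps to assemble dynein arms in the cytoplasm, had 12.8, 10.8 and 15.5 CPM with FGF2 and 14.0, 12.1 and 12.5 CPM with vehicle, and these overlapped. Spag16, of the central apparatus, differed by 0.74 ± 0.25 (log2, SE, edgeR adjusted p = 0.163) with no overlap. Spag17, of the same structure, differed by -0.09 ± 0.09, but its span overlaps Wdr3 and its exonic level was only 0.286 and 0.282 RPKM.

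Levels per exon length set the motile genes apart from the transport genes before any comparison of the groups. The median of the mean RPKM over all libraries was 0.235 for the 37 motile genes and 5.01 for the 20 Ift and Bbs genes. Of the motile genes, 8 reached a mean of 1 RPKM, and of these Rsph1 and Tekt1 rose. The other 6, Dnalc1, Dnalc4, Rsph3b, Rsph9, Spag1 and Tekt2, differed by 0.01 to 0.27 (log2). Of the 29 motile genes below 1 RPKM, 24 were tested and 4 were called. In all, 19 of the 37 motile genes were higher in each FGF2 embryo than in any vehicle embryo in RPKM and 0 were lower in each, where 15.3% and 7.98% of 25180 genes were. In CPM, 15 were higher and 0 lower, where 12.6% and 11.0% of the 29000 genes with a read were. The median difference over the 37, fitted without the filter and with Dnahc7c at its lower bound against 3 reads over the vehicle group, was 0.61 (log2), against 0.03 over all genes with more than 3 reads in a group.

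**Figure D3:**
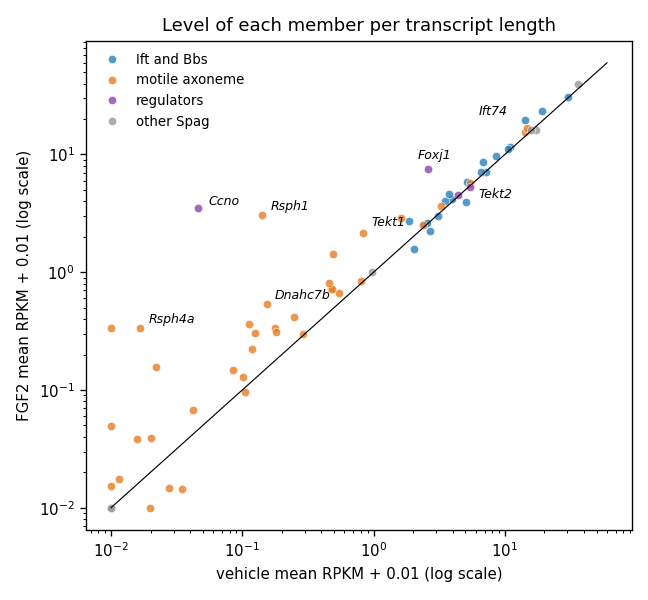
Mean RPKM plus 0.01 of each member in the vehicle embryos (x axis, log scale) and in the FGF2 embryos (y axis, log scale), coloured by class, with the line of equal level. The Ift and Bbs genes lie above 1 RPKM along the line, most motile genes lie lower and above the line, and Ccno and Rsph1 are farthest from it among genes above 1 RPKM with FGF2.

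Ift and Bbs genes were read in every embryo, with differences between -0.38 and 0.47 (log2). None was called, where 3.63% of all genes tested were. All 20 had a mean of at least 1 RPKM, from 1.79 to 30.3. Ift27, a small GTPase of the transport train, had 30.0, 29.9 and 31.7 RPKM with FGF2 and 34.8, 26.4 and 29.2 RPKM with vehicle. Ift20, which links the Golgi to the cilium, had 19.9, 23.1 and 26.6 RPKM against 19.5, 16.5 and 21.3 RPKM. Both overlapped between the groups. Bbs4, a BBSome subunit, had 8.20, 8.12 and 9.38 RPKM against 6.80, 6.71 and 6.87 RPKM, with no overlap and a count difference of 0.26 ± 0.10 (log2, SE, edgeR adjusted p = 0.214). Bbs2, another subunit, had 6.57, 6.48 and 4.58 RPKM against 4.55, 5.13 and 5.84 RPKM, with FGF2 8 among the vehicle values.

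The 4 Ift and Bbs genes with an unadjusted p below 0.05 went both ways, and none passed after adjustment. Ift140, of the train that returns to the cell body, had 37.3, 38.2 and 35.6 CPM with FGF2 and 46.4, 45.8 and 46.7 CPM with vehicle. Every FGF2 embryo was lower than every vehicle embryo, with a difference of -0.32 ± 0.07 (log2, SE, edgeR adjusted p = 0.0604). Ift74, of the outbound train, had 60.8, 53.8 and 49.6 CPM against 42.0, 40.8 and 43.2 CPM, all higher with FGF2 (0.38 ± 0.09 log2, SE, edgeR adjusted p = 0.072). Bbs5, which binds membrane lipids within the BBSome, had 9.35, 9.49 and 9.76 CPM against 7.43, 6.37 and 6.92 CPM, also higher in each (0.47 ± 0.12 log2, SE, edgeR adjusted p = 0.0943). Bbs4 was the remaining gene. DESeq2 and limma with sample weights each called 3 of the 20, 2 higher and 1 lower, and called 9.02% and 10.3% of all genes. The median difference of the 20 was 0.04 (log2), with Bbs10 lowest and Bbs5 highest. In CPM, 4 were higher and 2 lower in each FGF2 embryo than in any vehicle embryo, where 14.6% and 13.6% of the 21983 tested genes were. Bbs12, which differed by 0.09 ± 0.15 (log2, SE), overlaps the span of Fgf2 itself and of Cetn4.

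The other Spag genes share only the name, and none was called. Spag7 had 39.0, 39.3 and 40.6 RPKM with FGF2 and 38.7, 34.8 and 35.3 RPKM with vehicle, just apart, with a count difference of 0.07 ± 0.08 (log2, SE). Spag5, astrin of the mitotic spindle, had 17.3, 16.1 and 14.7 RPKM against 18.8, 16.4 and 17.1 RPKM, which overlapped between the groups. Spag4 of the nuclear envelope and Spag9, a scaffold of kinase signalling, differed by 0.00 ± 0.20 and -0.01 ± 0.08 (log2, SE). Spag11a and Spag11b, secreted peptides of the epididymis, had no read in any library.

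Genes of the same structures outside the naming rule were read from lists compiled with earlier results of these data known. Of 59 further motile cilium genes listed, 53 were found, 52 were tested, 19 rose and 0 fell. Among all genes tested, 2.68% were called higher and 0.951% lower. Of the 52, 14 reached the level of the low-count filter in fewer than 3 vehicle libraries, so they passed only with FGF2 libraries counted. At an unadjusted p below 0.05, 34 of the 52 differed, 33 higher, where 19.3% of all genes did, 11.2% higher. Leaving out 1 library gave 7 (without vehicle 7 or vehicle 9) to 19 calls. With the untested Ccdc153 at its lower bound, the median over the 53 without the filter was 1.03 (log2). The 8 with the smallest p were Lrrc23, Iqub, Dynlrb2, Enkur, Wdr16, Mlf1, Fam183b and Ccdc164, in that order. Of these, Iqub, Dynlrb2, Enkur, Wdr16 and Fam183b were among the 14 that passed the filter only with FGF2 libraries counted.

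Lrrc23, a radial spoke protein, had 6.15, 5.39 and 5.88 CPM with FGF2 and 0.638, 0.583 and 0.349 CPM with vehicle, and rose by 3.47 ± 0.26 on the log2 scale (SE, edgeR adjusted p = 0.00135). Its FGF2 embryos lay closer together than those of Rsph1. Dynlrb2, a light chain of ciliary dynein, had 1.02, 1.65 and 2.66 CPM against 0.0327, 0 and 0 CPM. With 374 reads against 2, the ratio was 163 (95% exact interval 44.8 to 1350, counting error only; edgeR adjusted p = 0.00427). Enkur, of the microtubule wall, had 1.65, 1.95 and 2.95 CPM against 0.147, 0.0898 and 0.254 CPM, and rose by 3.73 ± 0.43 (log2, SE, edgeR adjusted p = 0.0048). In Dynlrb2 and Enkur, FGF2 8 was highest, and in none of these genes did the groups overlap. The other 5 rose by 1.52 in Mlf1 to 3.96 in Iqub (log2).

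For primary cilium genes outside the rule, which serve transport, the cilium base and its membrane, only the median is given. Of 49 listed, 47 were found and tested, and the median difference was 0.09 (log2), beside 1.05 over the 52 further motile genes tested and 0.01 over all genes tested.

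Of 20 listed genes of multiciliation and centriole number, 17 were found and tested, 3 rose and 0 fell. Among all genes tested, 2.68% were called higher and 0.951% lower. The 3 were the only ones of the 17 with an unadjusted p below 0.05, which is near the 19.3% of all genes, 11.2% higher. Only 1 of the 3 was called without FGF2 7, vehicle 7, vehicle 8 or vehicle 9, 2 without FGF2 6 and 0 with the sex covariate. Ccdc67, the older symbol of Deup1, builds the deuterosome on which many centrioles form at once. It had 2.64, 2.95 and 3.67 CPM with FGF2 and 0.114, 0.0598 and 0.286 CPM with vehicle, and rose by 4.32 ± 0.48 on the log2 scale (SE, edgeR adjusted p = 0.00438). Like Ccno, it had few reads with vehicle, 29 over the 3 embryos, and more in each FGF2 embryo than in any of them. Ccdc67 reached the filter level in 1 vehicle library, so it passed only with FGF2 libraries counted.

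Cdc20b had 42.9, 43.3 and 39.3 CPM against 28.0, 30.0 and 30.1 CPM (0.51 ± 0.08 log2, SE, edgeR adjusted p = 0.0203). Its span overlaps Gpx8 and the Mir449 genes, whose reads are counted with it. In exonic RPKM it was at 0.587, 0.760 and 0.661 with FGF2 and at 0.00395, 0 and 0 with vehicle, so that by this unit the gene was near the limit of detection in the vehicle embryos and apart in every FGF2 embryo. Trp73 had 30.8, 21.9 and 21.3 CPM against 11.0, 14.1 and 13.4 CPM (0.94 ± 0.17 log2, SE, edgeR adjusted p = 0.0289). It also marks Cajal-Retzius cells. Of the 5 other listed markers of these cells 3 rose (Ebf3, Lhx1 and Lhx5), where 2.68% of all genes tested were called higher. Cacna2d2 and Reln were not called, and Reln had 108 CPM on average with FGF2 and 123 CPM with vehicle. Summed, the 5 were at 197, 176 and 228 CPM with FGF2 and at 159, 174 and 189 CPM with vehicle, which overlapped. Reln alone gave 97.8, 87.8 and 138 CPM of these sums with FGF2 and 110, 122 and 137 CPM with vehicle. Ebf3, Lhx1 and Lhx5 were each higher in every FGF2 embryo than in any vehicle embryo, where 14.6% of the tested genes were. The part of those cells in the Trp73 result was not tested. Centriole genes of dividing cells were not called: Plk4 differed by -0.09, Cep152 by 0.06, Sass6 by -0.15 and Stil by -0.26 (log2). Myb, an early factor of multiciliation and of dividing progenitors, had 12.5 CPM on average with FGF2 and 10.4 CPM with vehicle, not called.

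**Figure D4:**
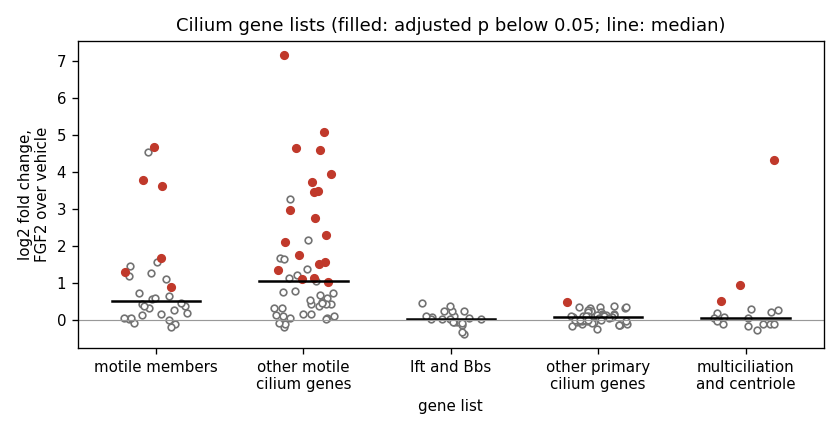
Log2 fold change of FGF2 over vehicle (y axis) for the tested genes of 5 lists, 1 point a gene, filled red where the test was passed, with a line at the median. The medians are 0.52 and 1.05 in the motile lists (tested genes), 0.04 and 0.09 in the lists of all cilia and 0.06 in the multiciliation list.

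FGF2 8 tended to hold the highest value of the axoneme genes and not of Ccno. Of the 6 called axoneme members, 5 were highest in FGF2 8 and Dnahc7b in FGF2 6, and of the 19 called motile genes outside the rule 15 were highest in FGF2 8. Among all 590 genes that rose, 42.2% were highest in FGF2 8. Ccno was highest in FGF2 6 and lowest in FGF2 8. Foxj1 was highest in FGF2 7 and Ccdc67 in FGF2 8.

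Markers of regions outside the dorsal telencephalon moved with the groups and, in part, with the embryos. The 13 choroid plexus markers summed to 193, 261 and 517 CPM in FGF2 6, 7 and 8 and to 33.0 to 36.2 CPM with vehicle; 7 rose, and Aqp1 fell. No choroid plexus marker was at 0 in all vehicle libraries, but Ttr, the plexus secretory protein, had only 54 reads there against 39088 with FGF2. Ttr gave most of the sum in FGF2 8, with 4971, 8913 and 25204 reads in FGF2 6, 7 and 8. The other markers together were not highest in FGF2 8. Otx2 gave the largest part of them, at 74.5, 60.8 and 42.7 CPM in FGF2 6, 7 and 8. Among the FGF2 embryos, Aqp1, Kl and Otx2 were highest in FGF2 6. Clic6, Prlr and Sostdc1 were highest in FGF2 7, and Ttr, Folr1, Htr2c, Kcne2, Enpp2, Slc4a5 and Cldn2 in FGF2 8. Folr1, Htr2c and Kcne2 reached the filter level in no vehicle library, and Ttr and Clic6 in 2. These called markers thus passed only with FGF2 libraries counted. Cortical hem and roof plate markers, of which 7 of 10 rose, summed to 214, 162 and 93.1 CPM against 47.5 to 50.3 CPM, with FGF2 8 lowest as in Ccno. The 6 called axoneme members summed to 30.0, 26.0 and 35.4 CPM, and to 9.85 to 14.1 CPM with vehicle. Dnahc7b alone gave 18.9, 14.5 and 15.4 CPM of these, and 7.25 to 11.2 CPM with vehicle.

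Floor plate and ventral midline markers, of which 4 of 8 rose, summed to 69.1, 75.0 and 47.5 CPM in FGF2 6, 7 and 8. FGF2 8 was thus lowest, as for the hem and roof plate markers. With vehicle the floor plate markers summed to 11.7 to 20.5 CPM. Among them Foxa2 had 0 reads in all vehicle libraries and 8 in all FGF2 libraries. Ventral telencephalon markers, of which 5 of 8 rose, summed to 420, 494 and 572 CPM, highest in FGF2 8. With vehicle they summed to 23.9 to 109 CPM, with Gsx1 at 0 in all vehicle libraries. Of all genes tested, 2.68% were called higher. The called Shh, Gsx1 and Lhx8 reached the filter level in no vehicle library and Foxa1 in 1, so these passed only with FGF2 libraries counted. The part of these regions in the cilium results was not tested.

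**Figure D5:**
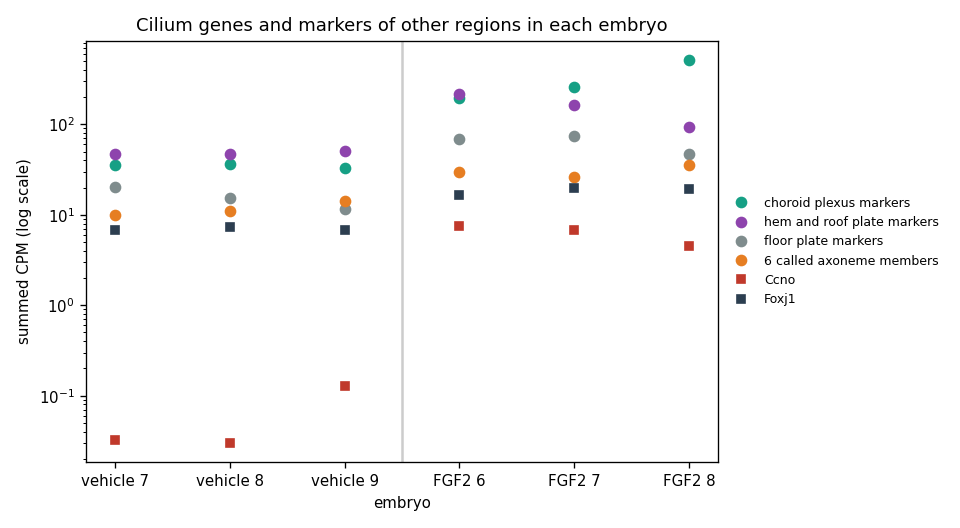
Summed CPM (y axis, log scale) of 3 marker lists and of the 6 called axoneme members, with Ccno and Foxj1, in each embryo (x axis). Summed choroid plexus markers are highest in FGF2 8, at 517 CPM, most of it from Ttr. Without Ttr that embryo is not highest, and Otx2, highest in FGF2 6, gives the largest part of the rest. Hem and roof plate markers, floor plate markers and Ccno are lowest in FGF2 8 among the FGF2 embryos.

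The calls differed in how far they rest on single libraries. Ccno and Foxj1 were called with any 1 library left out, with adjusted p up to 0.0114 and 0.0154. Rsph1 was lost without vehicle 9 (edgeR adjusted p = 0.0551) and Rsph4a without vehicle 8 (edgeR adjusted p = 0.112). Tekt1 and Dnahc6 kept the call only when FGF2 8 was the library left out, with adjusted p up to 0.124 and 0.115. Spag6 was lost without FGF2 7 or any 1 vehicle library, and Dnahc7b without FGF2 6, FGF2 7, vehicle 7 or vehicle 8, with adjusted p up to 0.156 and 0.205. With embryo sex as a covariate, 5 of 21983 genes were called and none of the members, with Ccno at an adjusted p = 0.0552 and Foxj1 at 0.0813 (edgeR). All 8 were higher with FGF2 in every alternative that gave a value.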

How the data were processed

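The counts are whole numbers of alignments that, as the authors deposited them, overlap each gene from start to end, introns included, so reads in overlapping genes count for each. RPKM values per symbol were deposited by the authors and fit an exonic model. They were joined to 34290 genes by unique symbols, all 67 members included. The build was NCBIM37 (mm9), and the submitters' processing notes list bedtools 2.12.0, Bowtie2 2.1.0.0, TopHat2 2.0.9 and CASAVA 1.8 without their roles. No source used here says whether counting used strand, so antisense reads cannot be told apart.

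Counts were tested over all 6 libraries in R 4.3.3 by edgeR 4.0.16 (filterByExpr by group, minimum count 10; TMM; robust glmQLFit; glmQLFTest), adjusted by Benjamini-Hochberg over 21983 genes, and tested on simulated data. SEs are those of the fitted log2 fold change. Alternatives, 19 in all, used DESeq2 1.42.0, limma 3.58.1 on counts and on log2(RPKM + 1) or log2(RPKM + 0.1), other scalings, filters and left-out libraries. Embryo numbers 7 and 8 occur in both groups, but same-numbered embryos did not deviate together (correlations -0.043 and -0.018), so they were not paired.

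Members and gene lists were chosen with earlier results of these data known. Described with values were the 4 regulators, called members, members of at least 1 mean CPM with groups apart and an absolute log2 change of at least 1, and in each class the 2 with highest RPKM; of the other lists, called genes or the 8 with smallest p. Dnahc1, Dnahc2, Dnahc3, Dnahc5, Dnaic1, Tekt4, Tekt5, Ift140, Ift74, Bbs5 and others named outside this rule were chosen after their values were seen. Promoter sequences come from RefSeq for GRCm38.p6, with no coordinates shared between builds. The calls within the list of further primary cilium genes are not reported here.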

Additional observations from a re-analysis of the deposited data

How the results depend on the processing

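The 6 motile calls and the 0 Ift and Bbs calls were recomputed under 19 alternatives. DESeq2 called 11 motile and 3 Ift and Bbs genes (2065 of all genes in place of 799), and limma with sample quality weights 11 and 3 (2259 in all). On log2(RPKM + 1) limma called 3 motile genes of 9 tested (432 in all), on log2(RPKM + 0.1) 2 (431 in all), and on log2(RPKM + 1) with no filter 1 of 37 (271 in all), where the added 1 compresses genes of low RPKM. With only genes that overlap no other span, 4 of 13 motile genes were called (488 in all, fewer genes tested). With embryo sex as a covariate, 0 motile and 5 of all genes were called; only vehicle 7 shares the sex of the FGF2 embryos, and the cause was not tested. Leaving out 1 library gave 1 to 6 motile calls, 0 to 2 Ift and Bbs calls (2 without FGF2 8, 0 otherwise) and 218 (without vehicle 8) to 1943 (without FGF2 8) calls in all; fewer samples are fitted there. With the replicate block on embryo number, which pairs only 7 and 8 and is no pairing by the data, 703 genes, 8 motile and 0 Ift and Bbs genes were called. Other scalings, the other low-count filters and halved counts of vehicle 9 gave 5 to 7 motile and 0 Ift and Bbs calls. Of the 25 members described with values by the naming rule, no called one changed direction; 7 that were not called (Dnahc11, Dnahc17, Ift27, Rfx2, Spag1, Spag7 and Tekt2) crossed 0 in 24 of 453 values, all at most 0.32 in size (log2). Of the further motile genes, 19 as reported, 7 to 19 were called with 1 library left out, 29 by DESeq2, 26 by weighted limma, 8 on filtered and 6 on unfiltered log2(RPKM + 1), and 0 with the sex covariate. Of the multiciliation list, 3 as reported, 1 to 3 were called with 1 library left out, 2 with the replicate block, 1 on filtered log2(RPKM + 1), 1 with only genes that overlap no other span and 0 with the sex covariate. Low levels limit Ccno, Rsph4a and Tekt4, whose vehicle values rest on 12, 8 and 4 reads.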
